A study of Mus musculus with 12 samples.

Results

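The genes encoded by mouse mitochondrial DNA were followed in 12 left ventricle libraries. They were taken as every gene of the count table whose symbol starts with mt-, which gave 37 of 38293 genes: 13 protein genes, 2 ribosomal RNA (rRNA) genes and 22 transfer RNA (tRNA) genes. Healthy C57BL/6J mice had received 2 injections of 10 µl into the heart muscle, and the left ventricle was taken on day 3. In 4 libraries the injection held phosphate-buffered saline with no drug (PBS). In another 4 it held the Upy-PEG hydrogel, a poly(ethylene glycol) gel held together by hydrogen bonds, with no drug. The last 4 came from hearts given Upy-PEG loaded with antimiR-195, an oligonucleotide inhibitor of the microRNA miR-195. No infarct or transgene is named in the labels. The labels list separate samples without saying that each is a separate animal, so the p-values measure the spread between these samples.

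Mitochondrial DNA is a small circle present in many copies per cell, and heart muscle, which runs on oxidative metabolism, is among the tissues richest in it. Both strands are transcribed as long precursors, from which the tRNAs are cut out and so release most of the mRNAs and rRNAs lying between them. Its proteins are subunits of respiratory complexes I, III and IV and of ATP synthase, and its rRNAs and tRNAs serve the mitochondrial ribosome. All other subunits, and all proteins that copy, transcribe, process and translate this DNA, are nuclear genes. Most mitochondrial mRNAs carry short poly(A) tails, the rRNAs very short ones, and tRNAs end in CCA, so selection of polyadenylated RNA does not sample the 3 classes alike. Stretches of mitochondrial DNA have also been copied into the nuclear genome, where they are annotated as pseudogenes.

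Sequences are shown for 2 questions that the counts raise: which tRNA genes were seen, and which protein genes a read can be placed on. All were read on GRCm38 coordinates from the GENCODE release M21 transcripts, 5′ to 3′ along the gene. The isoleucine and methionine tRNA genes mt-Ti (chrM:3706-3774, plus strand) and mt-Tm (chrM:3845-3913, plus strand) held most tRNA counts, and their anticodons are in capitals.
mt-Ti: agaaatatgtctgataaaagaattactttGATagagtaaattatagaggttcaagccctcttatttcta
mt-Tm: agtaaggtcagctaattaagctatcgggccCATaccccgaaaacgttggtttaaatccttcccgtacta
The first 90 bases of mt-Co2 (chrM:7013-7102, plus strand), which encodes subunit 2 of complex IV, are set beside the nuclear pseudogene Gm28661 (chr1:24615476-24615565, minus strand). No base differs, so nothing is in capitals.
mt-Co2: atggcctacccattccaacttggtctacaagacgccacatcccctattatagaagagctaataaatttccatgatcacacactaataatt
Gm28661: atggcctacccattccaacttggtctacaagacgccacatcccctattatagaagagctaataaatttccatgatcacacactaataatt
For contrast, a stretch of mt-Cytb (chrM:14146-14235, plus strand), the cytochrome b gene of complex III, is set beside its nearest annotated nuclear copy, Gm11410 (chr4:80003990-80004079, plus strand). The 5 bases of 90 that differ are in capitals.
mt-Cytb: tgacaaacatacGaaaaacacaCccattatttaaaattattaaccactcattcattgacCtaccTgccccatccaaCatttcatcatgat
Gm11410: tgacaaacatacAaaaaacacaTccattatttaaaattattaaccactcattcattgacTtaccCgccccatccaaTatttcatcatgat

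The protein genes divided into a counted and a nearly uncounted set. Of the 13, the 7 genes mt-Nd1, mt-Nd2, mt-Co1, mt-Nd4, mt-Nd5, mt-Nd6 and mt-Cytb held 96.4% of all counts on mitochondrially encoded genes, with 1945 to 1530006 counts each per library. The other 6 are mt-Co2, mt-Atp8, mt-Atp6, mt-Co3, mt-Nd3 and mt-Nd4l, which lie next to each other on the circle. These 6 held 134 counts over all 12 libraries, with 0 to 7 counts per gene and library. mt-Atp6, which encodes the proton channel subunit of ATP synthase, had 2, 7, 3 and 2 counts in the PBS libraries, 2, 5, 1 and 5 with Upy-PEG and 7, 2, 5 and 3 with antimiR-195. No complex IV or ATP synthase gene other than mt-Co1 could therefore be compared between groups.

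The same 6 genes were set against the annotated nuclear transcripts with BLASTN, keeping matches of at least 99% identity over at least 50 bases. Of the 6, 5 matched over 98.99% to 99.9% of their length to unprocessed pseudogenes that lie side by side at chr1:24611535-24616197, all on the minus strand. mt-Co2 matched Gm28661 over 681 bases, mt-Atp6 matched Gm10925 over 678, mt-Co3 matched Gm28437 over 783 and mt-Nd4l matched Gm10222 over 294, each at 100% identity. mt-Nd3 matched Gm28438 over 345 bases with 1 mismatch. The block thus repeats the gene order of the circle, and mt-Atp8, for which no such match was found, lies where no gene is annotated between Gm10925 and Gm28661. The block runs on into its neighbours. In mt-Nd4, the first 876 of 1378 bases matched Gm28439 at 100%, and in mt-Co1 483 of 1545 bases at the gene's end matched Gm29216 with 1 mismatch. Of these 7 pseudogenes only Gm10222 is a row of the count table, with 1 to 6 counts per library.

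The part of these matches in the low counts was not tested. Per the category rows of the deposited count files, alignments of reads that mapped to more than 1 place numbered 0.579 to 0.921 per counted read and stand outside the gene counts. Beside these stretches of mt-Nd4 and mt-Co1, no match of this kind was found in the well counted genes, whose nuclear copies are more distant. The nearest copy of mt-Co1 over its whole length is Gm13340, at 97.6% identity, with 362 to 594 counts per library, and that of mt-Cytb is Gm11410, at 92.9%, with 16 to 44. For mt-Nd1 the nearest was Gm11834 at 76.6%, with no counts. The plot of counts along the mitochondrial genome shows the gap.

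**Figure D1:**
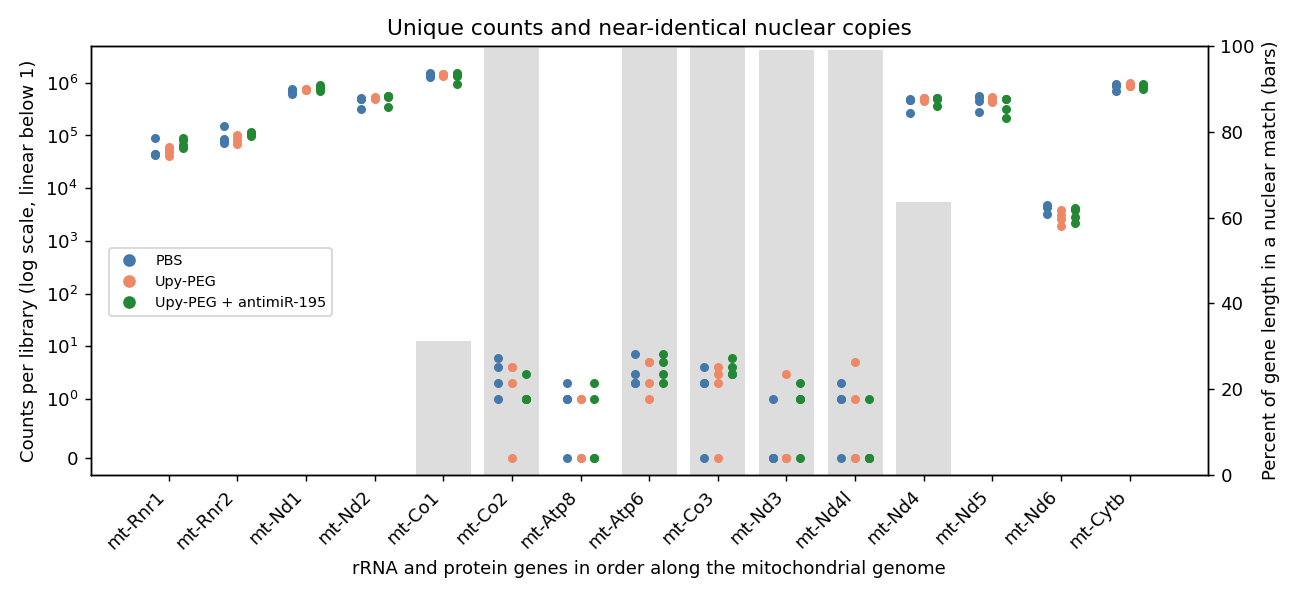
Counts per library (left axis, log scale, linear below 1) of the 2 rRNA and 13 protein genes in their order along the mitochondrial genome, 1 point per library coloured by group, over bars that give the percent of each gene's length matched to a nuclear transcript (right axis). The genes from mt-Co2 to mt-Nd4l lie between 0 and 7 counts in every library, and all of them but mt-Atp8 have bars near 100%.

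Per kilobase, the protein genes counted on the plus strand were the most abundant members. Levels are given in the authors' RPKM, reads scaled to gene length in kilobases and to library size, as means over the 4 PBS libraries. mt-Co1, the catalytic subunit of complex IV, stood at 35237 ± 5175 RPKM, mt-Cytb at 29206 ± 5913 and the complex I subunit mt-Nd1 at 28452 ± 4903 (SD, n = 4 each). Their means lie within the spread between libraries, but within libraries mt-Co1 stood above mt-Cytb in 11 of 12 and above mt-Nd1 in 10 of 12, with antimiR-195 replicate 2 the exception to both and replicate 3 to the second. mt-Cytb stood above mt-Nd1 in 7 of 12, so these 2 had no steady order. The other complex I subunits followed, with mt-Nd2 at 17232 ± 4709, mt-Nd4 at 12226 ± 3941 and mt-Nd5 at 9923 ± 3429, and this order held within each of the 12 libraries. If all counts on mt-Nd4 came from the 502 bases with no nuclear match, its level would be 33560 ± 10819 RPKM, and over its 1062 such bases mt-Co1 would stand at 51263 ± 7529. The order of mt-Nd4 among the complex I genes therefore depends on the length it is divided by.

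The rRNA genes stood lower in this polyadenylated RNA. mt-Rnr2, which encodes the 16S rRNA of the large ribosomal subunit, measured 2276 ± 579 RPKM, and mt-Rnr1, the 12S rRNA of the small subunit, 2158 ± 600 (SD, n = 4 PBS libraries). mt-Nd6, a complex I subunit and the only protein gene on the minus strand, measured 314 ± 52.5 RPKM. Of all mitochondrially encoded counts, mt-Co1 held 30.3%, mt-Cytb 19.3%, mt-Nd1 16.3%, mt-Nd2 10.7%, mt-Nd4 10.1% and mt-Nd5 9.61%. mt-Rnr2 held 2.14%, mt-Rnr1 1.31% and mt-Nd6 0.0756%. The tRNA genes together held 0.172%.

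The libraries held 22353241 to 30278621 counts on genes, of which 3576732 to 5025838 lay on mitochondrially encoded genes. Heart muscle markers such as Myh6 and Tnnt2 (15 of 15 tested) made up 9.92% to 13.7% of the counts outside these genes, and the atrial markers Sln, Myl7 and Myl4 0.0008% to 0.00855%. In bulk tissue, fewer cells of a type and less RNA per cell cannot be told apart. PBS replicate 1 and antimiR-195 replicate 2 stood apart in the make-up of their mitochondrial counts, given below. antimiR-195 replicates 2 and 3 also had the lowest slopes of gene level on gene length, −0.214 and −0.129 log2 per doubling of length outside mitochondrially encoded genes, against −0.0394 to 0.109 elsewhere. They had the most alignments of multi-mapped reads per counted read, 0.921 and 0.893, against 0.579 to 0.749. Results that rest on these libraries are given with and without them, a choice made after the values were seen.

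The share of all gene counts that lay on mitochondrially encoded genes varied more within the PBS and antimiR-195 groups than between groups. It was 12.3%, 19.5%, 19.2% and 18.7% in the PBS libraries. With Upy-PEG it was 16.6%, 17.6%, 17.8% and 17.9%. With antimiR-195 it was 21.7%, 14.8%, 21.04% and 18.7%. PBS replicate 1 and antimiR-195 replicate 2 were the lowest libraries, the Upy-PEG libraries lay close together, and all 3 groups overlapped. Exact 95% Clopper-Pearson intervals of these shares reached at most 0.0169 percentage points to either side and cover counting error only.

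The 13 protein genes carried nearly all of this share and showed the same libraries apart. They held 11.5%, 18.9%, 18.6% and 18.2% of gene counts in PBS, 16.2%, 16.99%, 17.1% and 17.4% with Upy-PEG, and 20.9%, 13.9%, 20.2% and 18.1% with antimiR-195. mt-Nd5 varied widely among them, at 0.924%, 2.28%, 2.22% and 1.82% in PBS, 1.89%, 1.83%, 1.70% and 1.72% with Upy-PEG, and 2.09%, 0.901%, 1.40% and 1.91% with antimiR-195. mt-Nd4, which lies before it on the circle, held 0.872%, 1.91%, 1.97% and 1.99% in PBS, and 2.23%, 1.505%, 2.31% and 1.89% with antimiR-195. PBS replicate 1 was the lowest of its group for both genes, and antimiR-195 replicate 2 of its own. The 2 rRNA genes held 0.785%, 0.518%, 0.498% and 0.463% in PBS, 0.391%, 0.568%, 0.614% and 0.494% with Upy-PEG, and 0.757%, 0.866%, 0.804% and 0.662% with antimiR-195. PBS replicate 1, low for the protein genes, was thus the highest PBS library for the rRNAs, and antimiR-195 replicate 2 was likewise lowest of its group for the protein genes and highest for the rRNAs. The rRNA shares with antimiR-195 lay above every Upy-PEG library.

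**Figure D2:**
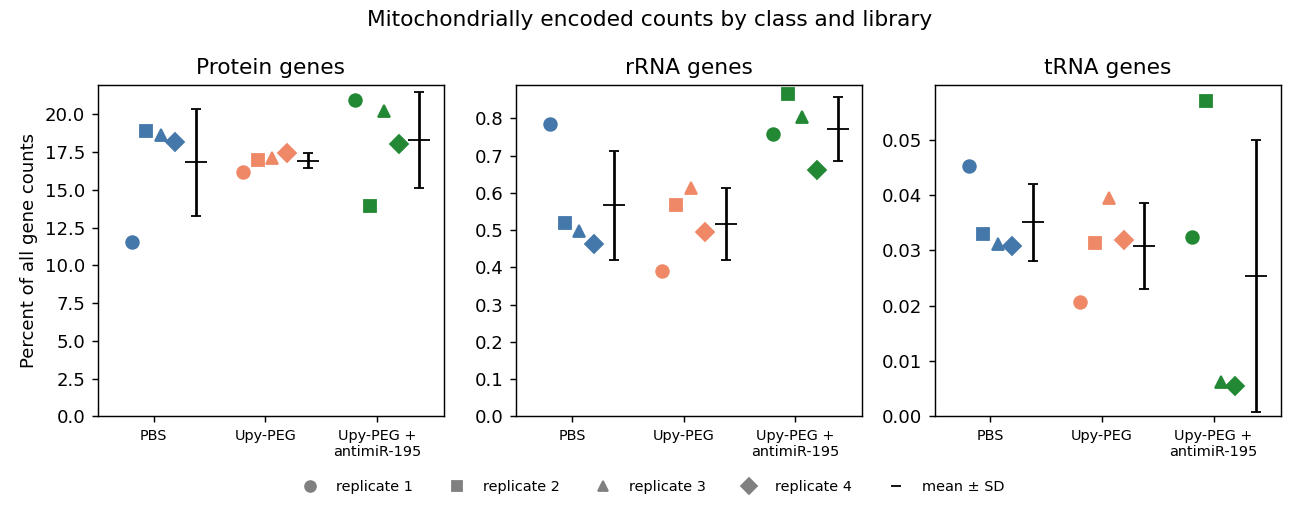
Percent of all gene counts on the protein, rRNA and tRNA genes of the mitochondrial genome (1 panel each, with its own axis from 0), 1 marker per library with its shape giving the replicate, and the group mean ± SD (n = 4) beside it. The antimiR-195 libraries lie between 0.662% and 0.866% for the rRNAs, above all 4 Upy-PEG libraries, and split into a higher and a lower pair for the tRNAs.

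In the same PBS replicate 1 and antimiR-195 replicate 2, rRNA made up more of the mitochondrially encoded counts, 6.36% and 5.84%, against 2.35% to 3.82% in the other 10 libraries. These libraries also had the fewest mitochondrial protein-gene counts per count on the 82 nuclear genes of the respiratory chain and ATP synthase, 1.90 and 2.04, against 3.36 to 4.41 elsewhere. Their summed erythroid markers (7 of 7 tested, among them the globin genes) were highest too, 0.169% and 0.149% of the counts outside mitochondrially encoded genes. The erythroid range was 0.0566% to 0.169% in PBS, 0.0347% to 0.0675% with Upy-PEG and 0.0651% to 0.149% with antimiR-195. The part of blood in these shares was not tested.

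**Figure D3:**
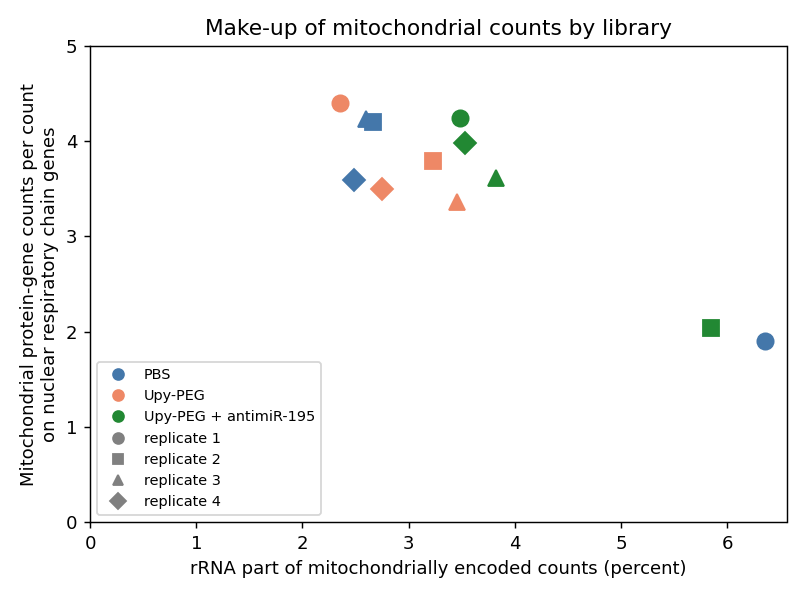
Mitochondrial protein-gene counts per count on nuclear respiratory chain and ATP synthase genes (vertical axis) against the rRNA part of mitochondrially encoded counts in percent (horizontal axis), 1 marker per library, coloured by group and shaped by replicate. PBS replicate 1 (6.36%, 1.90) and antimiR-195 replicate 2 (5.84%, 2.04) lie together at the lower right, and the other 10 libraries between 2.35% and 3.82%.

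Across the 12 libraries the mitochondrial share was set against 4 other measures, with permutation p-values from 100000 resamples. With the nuclear respiratory chain genes, Pearson's r was −0.23 (p = 0.466, adjusted 0.622) and Spearman's rho −0.01 (p = 0.973, adjusted 0.973), and r was −0.17 without the 2 libraries farthest from the median. With heart muscle markers r was −0.05 (p = 0.870, adjusted 0.870), rho 0.10 (p = 0.751, adjusted 0.973) and r −0.47 without the farthest 2. With erythroid markers r was −0.58 (p = 0.0506, adjusted 0.203) and rho −0.09 (p = 0.782, adjusted 0.973). Without PBS replicate 1 and antimiR-195 replicate 2 that r was 0.67, so the negative value rested on them. With the length slope r was 0.27 (p = 0.384, adjusted 0.622), rho 0.29 (p = 0.366, adjusted 0.973) and r 0.38 without the farthest 2. None of the 4 relations passed after adjustment.

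Of the 37 genes, 16 passed the filter on low counts and were tested with edgeR's quasi-likelihood test among 14770 genes: 7 protein genes, both rRNAs and 7 tRNAs. None passed an adjusted p of 0.05 in any of the 3 comparisons, and neither did any other gene (0.0% of 14770 genes called in each). At an unadjusted p under 0.05 the test gave 1944 genes for Upy-PEG against PBS, 1930 for antimiR-195 against Upy-PEG and 2444 for antimiR-195 against PBS, of which 2, 6 and 5 were members. DESeq2 called 511, 16 and 97 genes, with 1 member among the last. Members that passed the filter are not all members, and the comparisons share groups of libraries, so their values are given side by side and not as independent results. The plot of fold changes gives all 16.

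**Figure D4:**
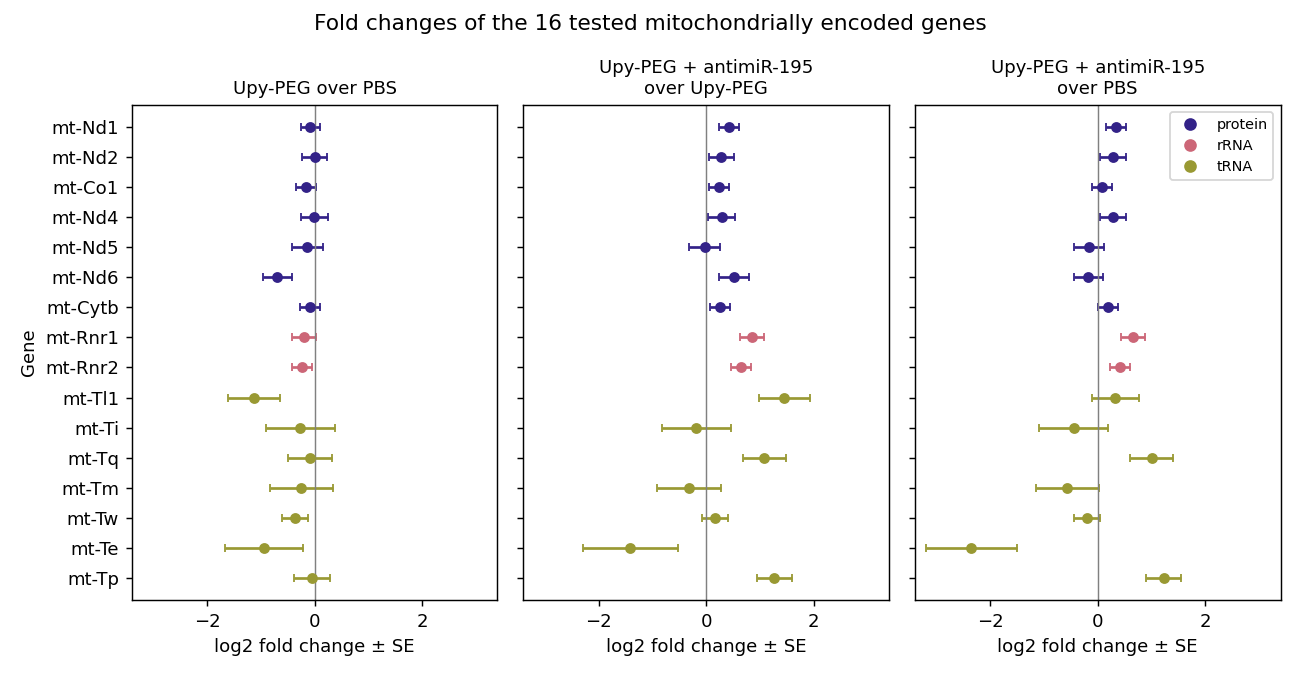
Log2 fold change ± SE (edgeR, horizontal axis) of the 16 tested mitochondrially encoded genes (vertical axis) in the 3 comparisons, coloured by class, with a line at 0. Both rRNA genes lie right of 0 in the panels with antimiR-195, at 0.85 and 0.64 over Upy-PEG and 0.66 and 0.41 over PBS. The tRNA genes scatter widely to both sides in these panels, and all 7 lie left of 0 for Upy-PEG over PBS.

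Whether the empty gel differs from a saline injection is addressed by the first pair of groups. The mitochondrial share averaged 17.4% ± 3.396 in PBS libraries and 17.5% ± 0.597 in Upy-PEG libraries (SD, n = 4 each), a difference of 0.0672 percentage points (2-sided exact permutation test over 70 assignments, p = 1). This near equality of means rests on PBS replicate 1. Without it, all 4 Upy-PEG libraries lay below the 3 PBS libraries, which ran from 18.7% to 19.5%. The difference was then −1.62 points (exact p = 0.0286, the smallest that 4 against 3 can give, unadjusted). PBS replicate 1 was singled out by its low value of this same share, so the p-value without it is no test of the gel. For the protein genes alone the difference was 0.121 points with all libraries (exact p = 1) and −1.65 without PBS replicate 1.

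Gene by gene, no protein or rRNA gene passed the test between Upy-PEG and PBS. On the log2 scale, mt-Nd1 stood at −0.08 ± 0.18, mt-Cytb at −0.08 ± 0.185, mt-Co1 at −0.15 ± 0.187, mt-Rnr1 at −0.19 ± 0.224 and mt-Rnr2 at −0.23 ± 0.189 (SE, edgeR adjusted p from 0.676 to 0.908). The sign of mt-Cytb and mt-Rnr1 turned when single libraries were left out. Of the 16 tested members, 15 had a log2 fold change below 0 with Upy-PEG after edgeR's scaling between libraries. Their median was −0.17, against −0.03 over all 14770 genes, of which 44.7% had a value above 0. This count depends on the scaling. As mean shares of gene counts, mt-Nd1, mt-Nd4, mt-Cytb, mt-Tp and mt-Tq were higher with Upy-PEG than in PBS, for example 2.76% against 2.72% for mt-Nd1. mt-Nd2 was higher by both measures. At an unadjusted p under 0.05, 2 of 16 were lower, against 3.83% of all genes, and none was higher, against 9.33%. mt-Tl1 and mt-Tw were lower in every Upy-PEG library than in every PBS library, 2 of 16 members against 3.77% of all genes, and both are tRNA genes. No member was higher without overlap, against 5.91%. mt-Tl1, a leucine tRNA, had only 2 to 14 counts in these libraries.

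mt-Nd6 was the protein gene with the lowest fold change. It had 4404, 4481, 3251 and 4844 counts in the PBS libraries, 1945, 2633, 3073 and 3804 with Upy-PEG, and 2788, 3921, 4160 and 2194 with antimiR-195. The highest Upy-PEG library stood above the lowest PBS library, so the groups overlapped. In CPM, counts scaled to library size after TMM normalization, it averaged 165 ± 30.3 in PBS and 102 ± 35.7 with the gel (SD, n = 4 each). The log2 fold change was −0.69, with an SE of 0.275 and an edgeR adjusted p of 0.283. As a part of mitochondrial protein-gene counts it was 0.0629% ± 0.0177 against 0.0999% ± 0.0224 (SD, n = 4 each, exact p = 0.0571, adjusted over the 21 tests of shares and ratios 0.40). Neither measure passed. Being on the minus strand, mt-Nd6 is read from the other precursor than the remaining protein genes, and its end overlaps that of mt-Nd5. Whether reads were counted by strand is not given in the sources used here, so reads of the overlap cannot be told apart.

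The comparison of the loaded gel with the gel alone asks what antimiR-195 adds. The rRNA genes were higher in every antimiR-195 library than in any Upy-PEG library. They held 0.772% ± 0.0859 of gene counts with antimiR-195 and 0.517% ± 0.0974 with Upy-PEG (SD, n = 4 each), a difference of 0.256 points. The exact p was 0.0286, the smallest that 4 against 4 can give, and 0.30 when adjusted over 21 tests, so the difference did not pass. As a part of mitochondrially encoded counts, rRNA made up 4.17% ± 1.12 and 2.95% ± 0.493 (exact p = 0.0286, adjusted 0.30). The groups again did not overlap, but narrowly, with a lowest antimiR-195 library of 3.49% and a highest Upy-PEG library of 3.46%. Without antimiR-195 replicate 2 this second difference was 0.666 points in place of 1.22 (exact p = 0.0571), and without replicates 2 and 3 it was 0.563 (exact p = 0.133). Fewer libraries allow fewer assignments, so these p-values are not comparable with the one from all libraries. The remaining antimiR-195 replicates 1 and 4, at 3.49% and 3.54%, still lay above every Upy-PEG library. The share of gene counts moved less, to 0.193 points without replicates 2 and 3.

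Both rRNAs showed this separately. mt-Rnr1 held 0.142%, 0.214%, 0.224% and 0.186% of gene counts in the Upy-PEG libraries and 0.281%, 0.374%, 0.362% and 0.230% with antimiR-195. mt-Rnr2 held 0.249%, 0.354%, 0.390% and 0.308% with Upy-PEG and 0.477%, 0.492%, 0.442% and 0.432% with antimiR-195. In neither did the groups overlap, and mt-Rnr1 was highest in antimiR-195 replicates 2 and 3. The log2 fold change of mt-Rnr1 was 0.85 ± 0.226 and that of mt-Rnr2 0.64 ± 0.19 (SE, edgeR adjusted p = 0.364 for both). These rest on TMM-normalized counts and are larger than the shares alone give. The TMM factors were 1.01 to 1.14 with Upy-PEG and 0.916 to 1.01 with antimiR-195. With replicates 2 and 3 of antimiR-195 left out the log2 fold changes were 0.54 and 0.60, so mt-Rnr1 moved by over 1.5 times and mt-Rnr2 did not. In PBS the values were 0.292%, 0.177%, 0.177% and 0.179% for mt-Rnr1 and 0.493%, 0.342%, 0.321% and 0.285% for mt-Rnr2, and PBS replicate 1 alone reached the antimiR-195 range.

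mt-Nd1, which follows the rRNA genes on the circle, was the only protein gene whose groups did not overlap in this comparison. It held 2.56%, 2.73%, 2.86% and 2.91% of gene counts with Upy-PEG and 3.42%, 2.95%, 3.98% and 2.98% with antimiR-195. Its log2 fold change was 0.42 ± 0.181 (SE, edgeR adjusted p = 0.37). mt-Cytb stood at 0.27 ± 0.185, mt-Co1 at 0.24 ± 0.187 and mt-Nd6 at 0.52 ± 0.274 (adjusted p from 0.402 to 0.534). Of the 16 members, 12 were higher, with a median of 0.29 against −0.01 over all genes, of which 49.2% were above 0. At an unadjusted p under 0.05, 6 of 16 were higher, against 6.67% of all genes, and none was lower, against 6.4%. mt-Nd1, mt-Rnr1, mt-Rnr2 and mt-Tp did not overlap between groups, 4 of 16 members against 1.94% of all genes, and none was lower without overlap, against 2.46%. The whole mitochondrial share was 19.1% ± 3.11 with antimiR-195 and 17.5% ± 0.597 with Upy-PEG (SD, n = 4 each, exact p = 0.314). The difference of 1.60 points became 3.02 without antimiR-195 replicate 2 (exact p = 0.0286, unadjusted). That replicate had the lowest share of its group and was left out after this was seen, so the p-value without it is no test.

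Against PBS, the rRNA genes were again higher on average with the loaded gel, by less than against Upy-PEG. The rRNA share was 0.206 points higher (0.772% ± 0.0859 against 0.566% ± 0.147, SD, n = 4 each, exact p = 0.0857, adjusted 0.45). The groups overlapped through PBS replicate 1, without which the difference was 0.279 points (exact p = 0.0286, unadjusted). Leaving out the library that overlapped removes the overlap by choice, so the p-value without it is no test. As a part of mitochondrially encoded counts, rRNA made up 4.17% ± 1.12 against 3.53% ± 1.89 (SD, n = 4 each, exact p = 0.486, adjusted 0.85). That difference of 0.647 points became 1.59 without PBS replicate 1 and −0.0137 without antimiR-195 replicates 2 and 3. mt-Rnr1 stood at 0.66 ± 0.225 and mt-Rnr2 at 0.41 ± 0.189 on the log2 scale (SE, edgeR adjusted p = 0.253 and 0.301). With replicates 2 and 3 of antimiR-195 left out, mt-Rnr1 stood at 0.35 and mt-Rnr2 at 0.38. mt-Nd1 stood at 0.35 ± 0.18, mt-Cytb at 0.19 ± 0.185, mt-Co1 at 0.09 ± 0.187 and mt-Nd6 at −0.17 ± 0.274 (adjusted p from 0.33 to 0.809). The sign of mt-Co1 and mt-Nd6 turned when single libraries were left out. The whole share differed by 1.66 points (19.1% ± 3.11 against 17.4% ± 3.396, exact p = 0.486), and by −0.0265 without PBS replicate 1.

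Over the 16 members, 10 were higher and 6 lower against PBS, with a median of 0.24 against 0.01 over all genes, of which 50.8% were above 0. At an unadjusted p under 0.05, 4 of 16 were higher, against 8.65% of all genes, and 1 was lower, against 7.89%. Only mt-Tp did not overlap and was higher, 1 of 16 members against 2.74% of all genes, and none was lower without overlap, against 3.32%. mt-Tp, a proline tRNA on the minus strand, was named after its values were seen. It had 62, 37, 34 and 78 counts in PBS, 40, 64, 76 and 42 with Upy-PEG, and 69, 163, 88 and 116 with antimiR-195. Its log2 fold change was 1.23 ± 0.323 over PBS and 1.27 ± 0.322 over Upy-PEG (SE, edgeR adjusted p = 0.253 and 0.364). DESeq2 alone gave it an adjusted p under the threshold, 0.0484 over PBS, the only call on a member by any setting tried.

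The tRNA genes split into a counted few and a nearly uncounted majority. Of 22, 14 never had more than 10 counts in a library and held 56 counts in all. The 7 genes mt-Td, mt-Tg, mt-Th, mt-Tk, mt-Ts1, mt-Ts2 and mt-Tv had 0 counts in every library, which allows a share of up to 9.75e-07% of the 307686852 counts. Reads that mapped to more than 1 place stand outside this bound. mt-Ts1, mt-Td, mt-Tk and mt-Tg lie between the end of mt-Co1 and mt-Nd4l, where 6 protein genes held 0 to 7 counts. Nuclear copies were sought among annotated transcripts only, so copies between the pseudogenes were not looked for. The part of such copies in these zeros was not tested. A further 7 tRNA genes were tested for differences, and mt-Ti and mt-Tm alone held 86335 of the 94307 counts on tRNA genes. Both lie on the plus strand between mt-Nd1 and mt-Nd2, and mt-Ti shares 2 bases with the end of mt-Nd1. By strand, the 14 tRNA genes on the plus strand held 92426 counts and the 8 on the minus strand 1881.

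mt-Ti and mt-Tm were low in 2 antimiR-195 libraries, replicates 3 and 4. mt-Ti had 11929, 6641, 5906 and 6309 counts in PBS, 4653, 7203, 8289 and 7047 with Upy-PEG, and 5980, 11741, 906 and 766 with antimiR-195. mt-Tm had 1041, 870, 948 and 695 in PBS, 635, 966, 914 and 774 with Upy-PEG, and 705, 1199, 65 and 153 with antimiR-195. These replicates thus stood below every other library for both genes, while replicate 2 was the highest of all relative to its gene counts. Scaled to the plain gene count of each library, as unnormalized CPM, mt-Ti measured 40.5 and 29.9 in replicates 3 and 4 and 165 to 486 in the other 10 libraries, and mt-Tm 2.91 and 5.98 against 22.5 to 49.7. The lowest of the other 10 was 4.07-fold above the higher of the pair for mt-Ti and 3.77-fold for mt-Tm. Their neighbours mt-Nd1 and mt-Nd2 did not show it: mt-Ti counts per 1000 mt-Nd1 counts were 1.02 and 1.003 in the pair and 6.44 to 19.5 elsewhere.

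**Figure D5:**
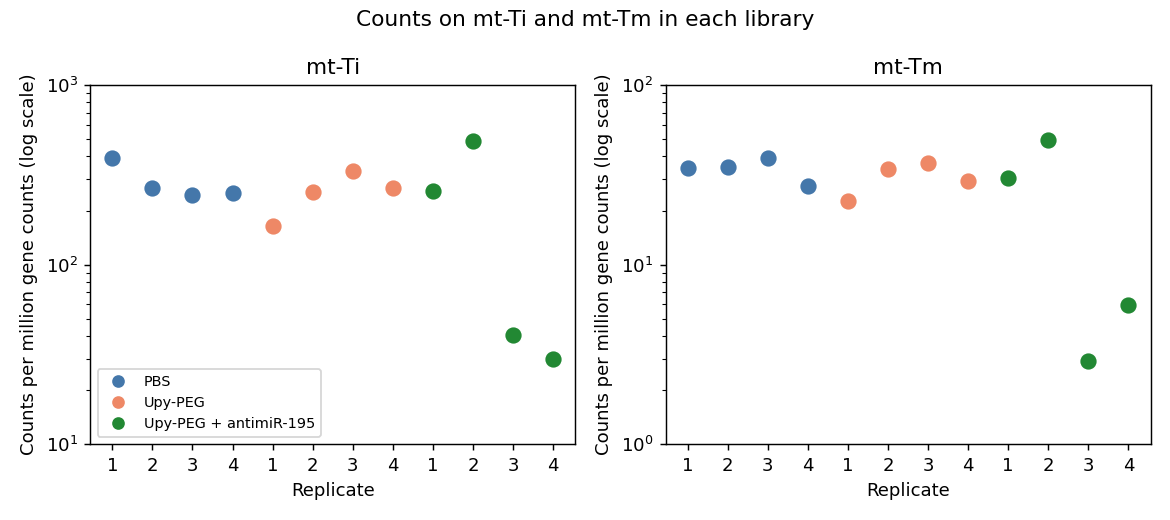
Unnormalized CPM (counts scaled to the gene counts of the library) of mt-Ti and mt-Tm (vertical axes, log scale) in each library, by replicate and coloured by group. antimiR-195 replicates 3 and 4 lie at 40.5 and 29.9 for mt-Ti and 2.91 and 5.98 for mt-Tm, below the other 10 libraries.

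Since the antimiR-195 group holds its lowest and highest libraries for this pair, its means say little. The log2 fold changes over Upy-PEG were −0.18 ± 0.641 for mt-Ti and −0.32 ± 0.586 for mt-Tm, and over PBS −0.45 ± 0.642 and −0.56 ± 0.586 (SE, edgeR adjusted p from 0.602 to 0.902). Without replicates 3 and 4 all 4 values were positive, 0.69, 0.53, 0.42 and 0.29. Over PBS, Upy-PEG stood at −0.26 ± 0.641 and −0.24 ± 0.582 (adjusted p = 0.908 and 0.907). mt-Te, a glutamate tRNA on the minus strand named after its values were seen, showed a different split. It had 14, 36, 18 and 66 counts in PBS, 6, 19, 25 and 27 with Upy-PEG, and 20, 1, 1 and 1 with antimiR-195, so replicate 2 was low with 3 and 4. Its log2 fold change over PBS was −2.35 ± 0.847 (SE, edgeR adjusted p = 0.253), and without antimiR-195 replicate 1 it was −4.80, so its size rests on that library.

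The other tested tRNA genes varied in how far they followed the pair. mt-Tw, a tryptophan tRNA that shares its first bases with the end of mt-Nd2, had 627, 549, 558 and 533 counts in PBS, 446, 530, 504 and 468 with Upy-PEG, and 635, 531, 257 and 314 with antimiR-195. In unnormalized CPM it too was lowest in antimiR-195 replicates 3 and 4, at 11.5 and 12.3 against 15.8 to 27.4 in the other 10, a gap of 1.29-fold. mt-Tq, a glutamine tRNA on the strand opposite mt-Ti and mt-Tm, measured 3.31 and 1.33 unnormalized CPM in these replicates, within the 1.16 to 5.92 of the rest. mt-Tp, at 88 and 116, was above every PBS and Upy-PEG library. mt-Ti and mt-Tm made up 69.4% and 65.2% of tRNA counts in the pair and 89.2% to 94.4% elsewhere. As a share of gene counts the tRNA genes held 0.0351% ± 0.00691 in PBS, 0.0308% ± 0.00773 with the gel and 0.0253% ± 0.0246 with antimiR-195 (SD, n = 4 each), and no comparison passed (exact p = 0.771, 0.486 and 0.457 for antimiR-195 with Upy-PEG, antimiR-195 with PBS, and Upy-PEG with PBS).

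The nuclear partners of these genes were read from lists of the machinery that copies, transcribes, processes and translates mitochondrial DNA. Tfam, which packages the DNA and starts transcription, measured 49.1 ± 6.85 CPM with PBS, 44.5 ± 7.67 with Upy-PEG and 55.2 ± 9.12 with antimiR-195 (SD, n = 4 each). Polrmt, the mitochondrial RNA polymerase, measured 44.2 ± 2.95, 35.2 ± 3.42 and 37.8 ± 3.70 CPM. Every Upy-PEG library (32.0, 32.6, 37.3 and 38.9) lay below every PBS library (44.2, 48.4, 42.3 and 41.9), and its fold change was −0.33 ± 0.102 on the log2 scale (SE, edgeR adjusted p = 0.162). limma voom with sample weights gave −0.32 with an adjusted p of 0.0351. Lrpprc, which stabilises mitochondrial mRNAs, was likewise lower in every Upy-PEG library, at 202 ± 31.1 CPM against 253 ± 13.5 in PBS (log2 fold change −0.32 ± 0.119, adjusted p = 0.248). In this comparison 3.77% of all genes were lower without overlap. Of the 82 nuclear respiratory chain and ATP synthase genes and of 76 mitochondrial ribosomal protein genes, 0 were. The lists of transcription and RNA processing genes were not counted in this way, so Polrmt and Lrpprc have no such count beside them.

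The remaining named partners overlapped between groups in every comparison. Over PBS, Upy-PEG stood at −0.14 ± 0.151 for Tfam, −0.16 ± 0.107 for Polg, the DNA polymerase of mitochondria, −0.14 ± 0.108 for Mtpap, the poly(A) polymerase that adds the tails, and −0.41 ± 0.201 for Ppargc1a, a coactivator of mitochondrial biogenesis (SE, edgeR adjusted p from 0.416 to 0.764). Over Upy-PEG, antimiR-195 stood at 0.31 ± 0.151 for Tfam, 0.10 ± 0.103 for Polrmt, 0.11 ± 0.119 for Lrpprc, 0.17 ± 0.108 for Mtpap, 0.02 ± 0.201 for Ppargc1a and −0.10 ± 0.107 for Polg (adjusted p from 0.385 to 0.967). Over PBS, antimiR-195 stood at −0.26 ± 0.107 for Polg, −0.23 ± 0.103 for Polrmt, −0.21 ± 0.119 for Lrpprc, −0.39 ± 0.202 for Ppargc1a, 0.17 ± 0.151 for Tfam and 0.03 ± 0.108 for Mtpap (adjusted p from 0.281 to 0.886). None passed in any of the 3 comparisons.

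By list, no member passed the adjusted threshold with edgeR in any comparison, so the lists are described by counts and medians. For Upy-PEG over PBS, 78 of the 82 tested nuclear respiratory chain and ATP synthase genes were lower, with a median log2 fold change of −0.20, while 44.7% of all genes were above 0. At an unadjusted p under 0.05, 1 of the 82 was lower, against 3.83% of all genes. Of 76 mitochondrial ribosomal protein genes (77 listed), 68 were lower, with a median of −0.11. Of 29 translation factor and tRNA synthetase genes 28 were lower (median −0.22), of 31 RNA processing genes 25 (−0.14), of 21 DNA maintenance and transcription genes 15 (−0.15) and of 12 biogenesis regulators 9 (−0.17). Lower at an unadjusted p under 0.05 were 5 of these 29, 2 of the 31, 2 of the 21 and 1 of the 12. Of the 76 ribosomal protein genes 0 were, and no gene of these lists was higher at that level, against 9.33% of all genes. The median over all genes was −0.03. Upy-PEG replicate 1 carried much of this: without it the medians were −0.053 for the respiratory chain (61 of 82 lower), 0.002 for the ribosomal proteins (36 of 76 lower), −0.036 for RNA processing and −0.040 for DNA maintenance and transcription. Without PBS replicate 1 they were −0.087, −0.048, −0.061 and −0.033. The translation list was −0.137 without Upy-PEG replicate 1, and the biogenesis list −0.086 without Upy-PEG replicate 4. In the same comparison the 15 heart muscle markers were all lower, with a median of −0.28, and the 10 macrophage markers all higher, with a median of 0.87. The part of this shift in cell markers in the lists was not tested.

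For antimiR-195 over Upy-PEG, all 82 nuclear respiratory chain genes and all 76 ribosomal protein genes were higher, with medians of 0.47 and 0.37, against −0.01 over all genes. At an unadjusted p under 0.05, 54 of 82 and 45 of 76 were higher, against 6.67% of all genes. Without antimiR-195 replicates 2 and 3 those counts were 1 of 82 and 0 of 76, against 371 of 15135 genes tested, and the medians 0.15 and 0.12. Without Upy-PEG replicate 1 they were 9 of 82 and 7 of 76, against 289 of 14893 genes, and the medians 0.33 and 0.26. Without Upy-PEG replicate 2 they were 19 and 14, against 518 of 14923 genes. In the same comparison 13 of 15 heart muscle markers were higher, with a median of 0.44, 6 of 7 erythroid markers were higher (1.03) and all 10 macrophage markers were lower (−0.29). The part of these marker shifts in the lists was not tested. The mitochondrially encoded protein genes had a median of 0.29 over 7 genes with all libraries and 0.32 without these replicates, and the rRNA genes 0.75 and 0.57. Over PBS, the nuclear respiratory chain genes had a median of 0.32 (75 of 82 higher) with all libraries and −0.03 (29 of 82 higher) without replicates 2 and 3. The mitochondrially encoded protein genes had 0.19 and 0.24, and the rRNA genes 0.53 and 0.37. Leaving out these replicates, which have the lowest length slopes, thus moved the medians of the nuclear genes more than those of the mitochondrially encoded genes. The part of the length slope in either was not tested.

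The balance of the 2 genomes was also read within each library, as mitochondrial protein-gene counts per count on nuclear respiratory chain and ATP synthase genes. It was 1.90, 4.20, 4.23 and 3.60 in PBS, 4.41, 3.79, 3.36 and 3.50 with Upy-PEG, and 4.24, 2.04, 3.62 and 3.98 with antimiR-195. The group means were 3.48 ± 1.09, 3.76 ± 0.463 and 3.47 ± 0.987 (SD, n = 4 each), and all groups overlapped. The differences were 0.279 for Upy-PEG less PBS (exact p = 0.771), −0.293 for antimiR-195 less Upy-PEG (exact p = 0.743) and −0.0132 for antimiR-195 less PBS (exact p = 1). The sign of all 3 turned when single libraries were left out. Since 6 of the 13 protein genes are almost uncounted, the ratio describes the 7 counted ones and not the whole genome.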

How the data were processed

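Polyadenylated RNA of 12 left ventricle samples was sequenced with a stranded TruSeq kit, per the labels' protocols. STAR, HTSeq, DESeq and GRCm38 are named in the submitters' processing notes, without versions or strand setting. The authors deposited raw read counts per gene, and RPKM values that the authors scaled by gene length and library size. Per the labels, no batch is recorded. Libraries held 22353241 to 30278621 gene counts. The members and gene lists were chosen with earlier results of these data known.

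Counts were tested with edgeR 4.0.16 (quasi-likelihood, TMM, filterByExpr, Benjamini-Hochberg, threshold 0.05) in R 4.3.3, over all 12 libraries and 14770 genes. Shares were compared by 2-sided exact permutation tests. Fold changes are printed for mt-Nd1, mt-Nd6, mt-Cytb, mt-Co1, both rRNA genes and the 2 tRNA genes of highest count, with 6 nuclear partners. mt-Atp6, in the same rule, was too low to test. mt-Te, mt-Tp, mt-Tl1, mt-Tw and mt-Tq were added after their values were seen. Nuclear copies were sought with BLAST+ 2.17.0 among GENCODE M21 transcripts. Scripts were tested on simulated data. Alternatives were other scalings and filters, DESeq2 1.42.0, limma 3.58.1, and libraries left out.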

Additional observations from a re-analysis of the deposited data

Results flagged for a closer look

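In groups of 4 libraries, a library was singled out where its gap to the nearest other, divided by the group's range, exceeded Dixon's 95% critical value. Over 69 groups tested, 12 values did, and chance gives about 1 in 20 for a single test. Many of the measures are parts of each other in the same libraries, so the 12 values are not independent. Of the 12, 10 are PBS replicate 1. Its mitochondrial share was 12.3% (others 18.7% to 19.5%), its protein-gene share 11.5% (18.2% to 18.9%), its rRNA share 0.785% (0.463% to 0.518%) and its tRNA share 0.0454% (0.0308% to 0.0329%). The rRNA part of its mitochondrially encoded counts was 6.36% (2.48% to 2.66%). In CPM after TMM normalization, its mt-Rnr1 stood at 2879.99 (others 1775 to 1863), mt-Nd1 at 19923 (29403 to 31199), mt-Nd2 at 10433 (19925 to 21867), mt-Nd4 at 8598 (19789 to 20126) and mt-Cytb at 23034 (37123 to 37889.8).

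The rRNA part of antimiR-195 replicate 2 was 5.84% (others 3.49% to 3.82%). mt-Te stood at 0.928 CPM in antimiR-195 replicate 1 (others 0.0387 to 0.0489), on 20 counts against 1 in each of the other 3 libraries.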

How the results depend on the processing

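No paired analysis was possible because the labels give no pairing of samples between groups. The replicate numbers used here follow the order of the samples within each group and link no libraries between groups. Counts of genes past the threshold for Upy-PEG against PBS were 0 with edgeR, 69 with no filter, 511 with DESeq2, 918 with limma voom, 172 with only the 8 libraries compared, 349 without antimiR-195 replicates 2 and 3, and 0 to 150 with 1 library left out (150 without antimiR-195 replicate 2). antimiR-195 against Upy-PEG gave 16 with DESeq2. Against PBS it gave 1 with no filter, 97 with DESeq2 and 1 with limma voom. Of the genes named above, Polrmt (Upy-PEG against PBS, limma voom, adjusted p = 0.0351) and mt-Tp (antimiR-195 against PBS, DESeq2, adjusted p = 0.0484) came past the threshold. With limma voom, 1 gene of the translation factor and tRNA synthetase list was also called lower for Upy-PEG against PBS. The cause of these changes was not tested.

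Reversed log2 fold changes were, for Upy-PEG against PBS, mt-Rnr1 0.019 and mt-Tp 0.0445 with limma voom, and mt-Rnr1 0.00712 without PBS replicate 1 and antimiR-195 replicate 2. Without antimiR-195 replicates 3 and 4, mt-Ti was 0.687 and mt-Tm 0.534 over Upy-PEG, 0.42 and 0.29 over PBS, and Ppargc1a −0.0718 over Upy-PEG. Without replicates 2 and 3, Polg was 0.070 over Upy-PEG and Tfam −0.037 over PBS. Without PBS replicate 1 and antimiR-195 replicate 2, Mtpap was −0.0182 (antimiR-195 over PBS).

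Reversed differences in shares and ratios were as follows. The mitochondrial share of Upy-PEG less PBS was −0.0516 as a percent of counts outside mitochondrially encoded and erythroid genes. Without antimiR-195 replicates 2 and 3, the rRNA part was −0.0137 against PBS, the mt-Nd6 part −0.0104 against Upy-PEG, and the mitochondrial to nuclear ratio 0.349 against Upy-PEG and 0.628 against PBS. Without replicates 3 and 4, the tRNA share was 0.0139 against Upy-PEG and 0.00966 against PBS. Without PBS replicate 1 and antimiR-195 replicate 2, Upy-PEG less PBS was −1.62 for the mitochondrial share, −1.65 for the protein-gene share, 0.0236 for the rRNA share, 0.368 for the rRNA part and −0.248 for the ratio, and antimiR-195 less Upy-PEG was 0.184 for the ratio.

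With 1 library left out, log2 fold changes that turned ran from −0.22 to 0.00133 for mt-Cytb, −0.29 to 0.00674 for mt-Rnr1 and −0.30 to 0.23 for mt-Tp (Upy-PEG against PBS), from −1.05 to 0.18 for mt-Ti, −1.07 to 0.038 for mt-Tm and −0.0807 to 0.15 for Ppargc1a (antimiR-195 against Upy-PEG), and from −0.375 to 0.0141 for mt-Nd6, −0.0209 to 0.22 for mt-Co1 and −0.0464 to 0.10 for Mtpap (antimiR-195 against PBS). Of the shares, the mitochondrial one ran from −1.62 to 0.754 (Upy-PEG less PBS) and −0.0265 to 3.08 (antimiR-195 less PBS), the protein-gene share from −1.65 to 0.824 and −0.299 to 2.93, and the rRNA share from −0.0834 to 0.0236 and the rRNA part from −0.925 to 0.368 (Upy-PEG less PBS). The tRNA share ran from −0.0161 to 0.00109 (antimiR-195 less Upy-PEG), and the ratio from −0.248 to 0.529 (Upy-PEG less PBS), −0.550 to 0.184 (antimiR-195 less Upy-PEG) and −0.540 to 0.463 (antimiR-195 less PBS). Both rRNA genes and mt-Nd1 kept their sign over Upy-PEG in every alternative run.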
